A study of Arabidopsis thaliana with 12 samples.

Results

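Cytochrome P450 genes encode haem enzymes, most of them anchored in the endoplasmic reticulum, that insert oxygen into small molecules with electrons passed on by a reductase. Plants use them to make and inactivate hormones, to build lignin, sterols, pigments and cuticle, and to make defence compounds. They are named by family number, subfamily letter and gene number, and the CYP71B subfamily of Arabidopsis includes PAD3, the enzyme of the last step of camalexin synthesis. Their reaction needs molecular oxygen, which enters submerged tissue slowly.

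The members were chosen by symbol: every gene on a probe set annotated to a single gene whose symbol is CYP followed by a digit. Of 13356 genes measured, 26 matched. RefSeq gives 24 of them as cytochrome P450 genes. The other 2, CYP59 (AT1G53720) and CYP71 (AT3G44600), are cyclophilins, which share the letters but not the protein, and are given apart at the end. The 24 P450 genes comprise 19 of family CYP71, all of subfamily CYP71B, and 1 each of CYP51, CYP78, CYP79, CYP84 and CYP718. RefSeq lists 236 genes with a P450-type symbol, so the greater share of the superfamily, PAD3 included, was not analysed here.

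RNA came from leaves of 28-day-old Arabidopsis thaliana plants grown in equal periods of light and dark. The 4 groups were wild type (col) and atg5, an autophagy-defective mutant whose allele the labels do not name, each taken at 0 h without submergence (control) and after 48 h whole-plant submergence under 10 cm of water. Each group had 3 biological replicates, 1 array each. No plants kept in air for 48 h were in the data, so submergence and the passage of time cannot be told apart. Whole leaves were measured, so fewer cells of a type and less RNA per cell cannot be told apart either.

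Values are log2 signals as deposited, and their lowest value, 2.20, is shared by all arrays. A gene within 0.05 of it is at the floor and its level is only known to be at or below it. Differences are given in log2 signal ± the standard error that the model fitted, each group having 3 arrays, with limma's p-values adjusted by Benjamini-Hochberg over all 13356 genes and a threshold of 0.05. With so few arrays in a group, their number limits how precise these values are.

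At the floor on all 12 arrays lay 8 of the 24 P450 genes, against 20.0% of all genes. These were CYP71B16 (AT3G26150), CYP71B25 (AT3G26270), CYP71B30P (AT3G53290), CYP71B31 (AT3G53300), CYP71B37 (AT3G26330), CYP51G2 (AT2G17330), CYP79A2 (AT5G05260) and CYP718 (AT2G42850). CYP79A2 makes phenylacetaldoxime on the way to benzylglucosinolate, CYP71B31 oxidises linalool in flowers, and CYP51G2 is annotated as a transcribed pseudogene of the sterol demethylase family. Another 3 left the floor on few arrays: CYP71B21 (AT3G26190) on 1 array, where it reached 2.32, and CYP71B27 (AT1G13070) and CYP71B38 (AT3G44250) on 2 arrays each. The highest signal of CYP71B27, also annotated as a transcribed pseudogene, was 2.42 and that of CYP71B38 was 2.58. The 13 remaining genes lay above the floor on 6 or more arrays, and 11 of these 13 belong to CYP71B.

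**Figure D1:**
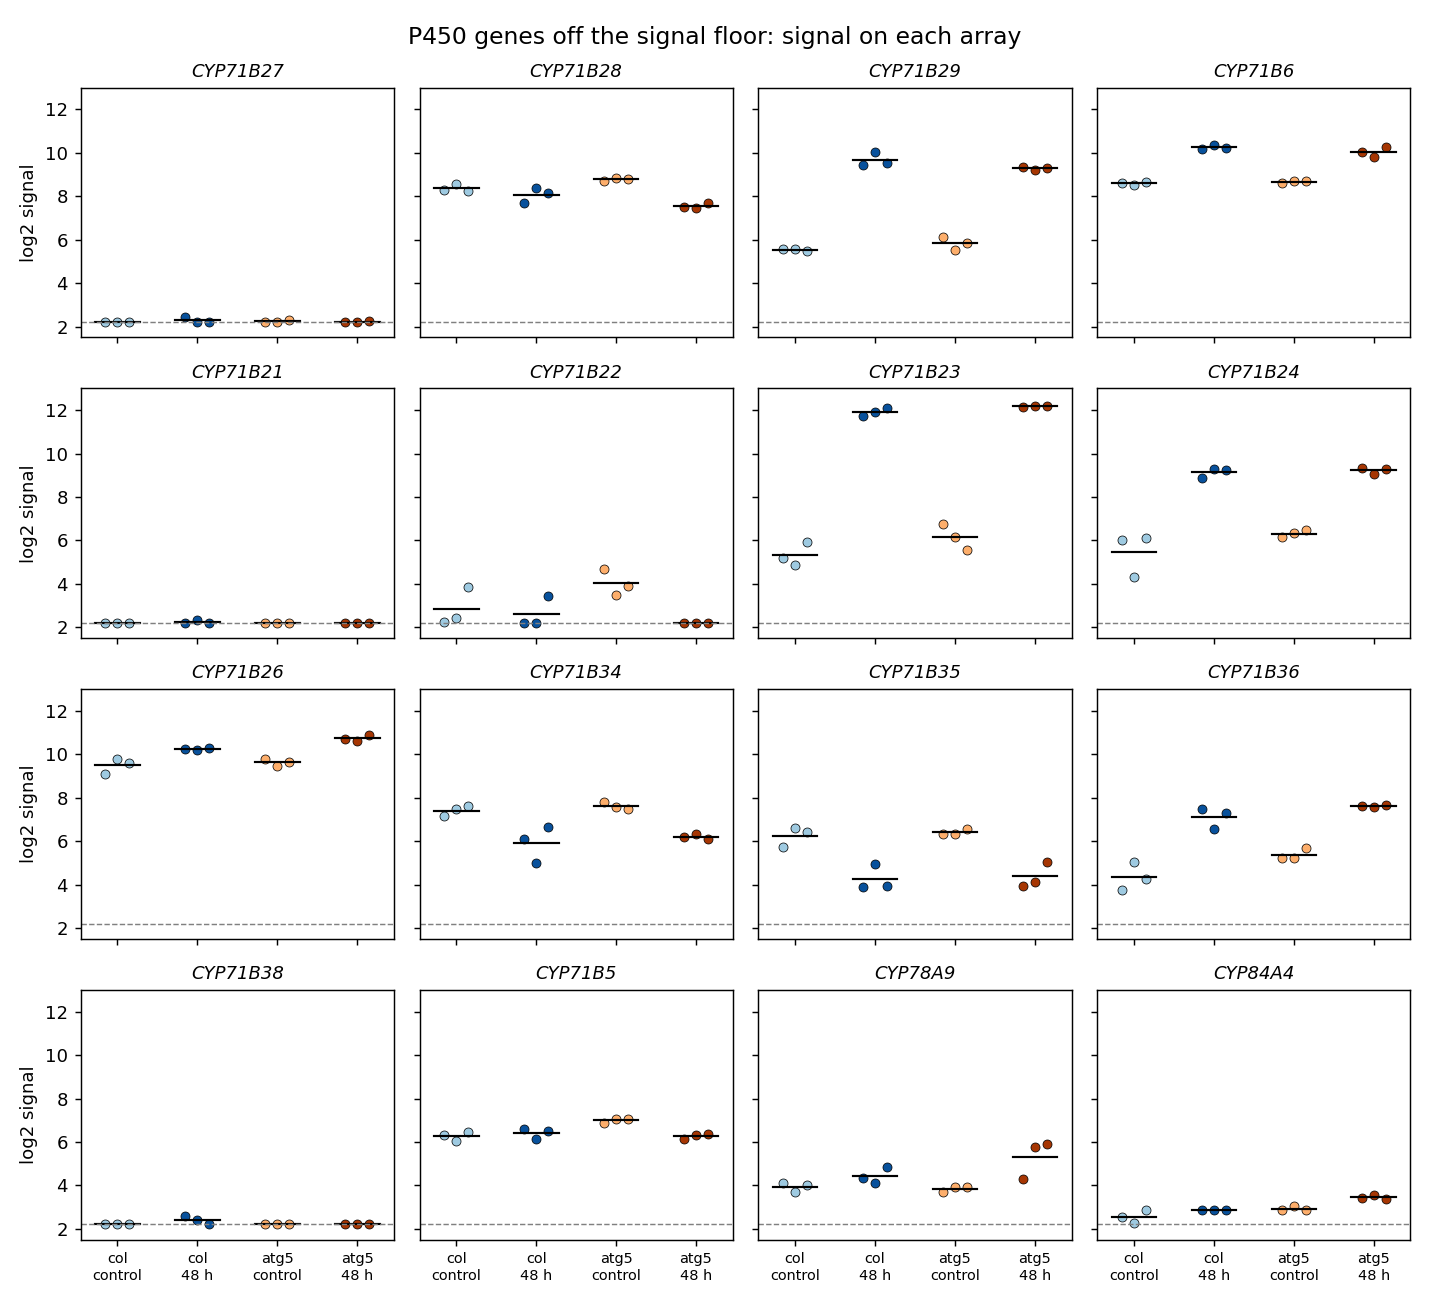
Log2 signal (vertical axis) of the 16 P450 genes off the floor on at least 1 array, in the 4 groups (horizontal axis), with 1 point per array, the group mean as a bar and the floor of 2.20 as a dashed line. CYP71B23, CYP71B24, CYP71B29, CYP71B36 and CYP71B6 lie higher on every 48 h array than on every control array of the same genotype, while CYP71B34 and CYP71B35 lie lower.

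The first question is how P450 genes respond to submergence in each genotype. In col, 6 of the 24 rose and 2 fell, where 20.4% of all genes rose and 22.1% fell. In atg5, 8 rose and 5 fell, where 19.1% and 21.2% of all genes did. All genes called together came to 42.5% in col and 40.3% in atg5, beside 33.3% and 54.2% of the P450 genes. The 8 P450 genes at the floor on all arrays were not called, and 20.0% of all genes lie there. Whether these shares differ from the background or between genotypes was not tested. The calls ran in both directions within CYP71B itself, with 6 of its 19 genes risen and 2 fallen in col, and 6 risen and 5 fallen in atg5. The median difference of the 24 genes was 0.02 in col and 0.00 in atg5, beside 0.00 for all genes in both. For the 16 off the floor on at least 1 array it was 0.24 in col and 0.27 in atg5. Of these 16, 12 differed upwards and 4 downwards in col, and 8 upwards and 6 downwards in atg5. Among all genes off the floor, 45.5% differed upwards in col and 45.8% in atg5. Whether the directions differ from that background was not tested. Centring each array on its median moved the median of all genes by 0.19 in col and 0.26 in atg5. With it, 19 P450 genes rose in col and 18 in atg5. Centring adds that shift to the difference of every gene, those at the floor included. Among the added rises in col were also CYP71B5 (0.33) and CYP84A4 (0.49), which lay above the floor on all arrays. Centring also turned CYP71B27 in atg5 from -0.02 to 0.24 (adjusted p = 0.035). None of the P450 calls above was lost.

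CYP71B23 (AT3G26210) had the largest response. On the col control arrays it read 5.21, 4.86 and 5.94, and on the col 48 h arrays 11.75, 11.93 and 12.12. The atg5 control arrays gave 6.76, 6.18 and 5.57, and the atg5 48 h arrays 12.16, 12.19 and 12.19. No submerged array overlapped a control array in either genotype, and the 3 atg5 48 h arrays lay almost on one level. The rise was 6.59 ± 0.33 in col (adjusted p = 6.72e-07), a 96.5-fold ratio of the signals, and 6.01 ± 0.33 in atg5 (adjusted p = 1.26e-06). It ranked 73 among the rises of all genes in col and 87 in atg5.

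CYP71B29 (AT1G13100) came next. It read 5.58, 5.57 and 5.45 in col control and 9.45, 10.02 and 9.52 in col at 48 h, then 6.14, 5.52 and 5.84 in atg5 control and 9.34, 9.20 and 9.31 in atg5 at 48 h. The groups stood more than 3 log2 units apart in both genotypes. The gene rose by 4.13 ± 0.18 in col (adjusted p = 3.05e-07) and by 3.45 ± 0.18 in atg5 (adjusted p = 9.13e-07).

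CYP71B24 (AT3G26230) read 6.04, 4.31 and 6.09 in col control against 8.89, 9.27 and 9.23 at 48 h. In atg5 it read 6.15, 6.33 and 6.46 against 9.31, 9.08 and 9.27. Col control replicate 2 lay well below the other arrays of its group, and the groups did not overlap. The rise was 3.65 ± 0.42 in col (adjusted p = 8.98e-05) and 2.91 ± 0.42 in atg5 (adjusted p = 0.000413).

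CYP71B36 (AT3G26320) rose by 2.78 ± 0.34 in col (adjusted p = 0.000141) and by 2.25 ± 0.34 in atg5 (adjusted p = 0.00057). Its signals were 3.74, 5.03 and 4.27 in col control, 7.50, 6.57 and 7.30 in col at 48 h, 5.21, 5.21 and 5.69 in atg5 control, and 7.63, 7.57 and 7.67 in atg5 at 48 h. The col arrays were more spread than the atg5 arrays in both conditions, with no overlap between control and 48 h.

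CYP71B6 (AT2G24180), which turns indole-3-acetonitrile towards indole-3-carboxylic acid, a branch of indole defence metabolism beside camalexin, rose by 1.66 ± 0.10 in col (adjusted p = 2.25e-06) and by 1.36 ± 0.10 in atg5 (adjusted p = 8.24e-06). It read 8.61, 8.54 and 8.66 in col control and 10.18, 10.37 and 10.24 at 48 h. In atg5 it read 8.60, 8.70 and 8.69, then 10.03, 9.79 and 10.25. The control arrays of both genotypes lay close together, well above the floor.

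CYP71B26 (AT3G26290) read 9.12, 9.77 and 9.59 in col control and 10.25, 10.21 and 10.27 at 48 h, and in atg5 it read 9.77, 9.48 and 9.65, then 10.71, 10.61 and 10.88. The shift was small beside those above, though the groups did not overlap. It rose by 0.75 ± 0.16 in col (adjusted p = 0.00368) and by 1.10 ± 0.16 in atg5 (adjusted p = 0.000391).

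CYP71B35 (AT3G26310) fell in both genotypes. It read 5.72, 6.59 and 6.45 in col control and 3.91, 4.95 and 3.95 at 48 h, and 6.34, 6.34 and 6.59 in atg5 control and 3.95, 4.13 and 5.06 at 48 h. In each genotype 1 of the submerged arrays lay about 1 log2 unit above the others, still below every control array. The gene fell by 1.98 ± 0.38 in col (adjusted p = 0.00239) and fell by 2.04 ± 0.38 in atg5 (adjusted p = 0.0021).

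CYP71B34 (AT3G26300) read 7.15, 7.47 and 7.61 in col control against 6.12, 5.01 and 6.66 at 48 h. In atg5 the arrays gave 7.79, 7.59 and 7.50 against 6.19, 6.32 and 6.12. Col 48 h replicate 2 was the lowest of all 12 arrays. The fall was 1.48 ± 0.35 in col (adjusted p = 0.00775) and 1.42 ± 0.35 in atg5 (adjusted p = 0.0102). With the 6 col arrays alone in the model, the col call did not pass (adjusted p = 0.0815).

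Another 5 genes passed in atg5 and not in col. CYP71B28 (AT1G13090) read 8.69, 8.83 and 8.81 in atg5 control and 7.48, 7.46 and 7.69 at 48 h, a fall of 1.23 ± 0.17 (adjusted p = 0.000273). In col it read 8.27, 8.55 and 8.25, then 7.69, 8.39 and 8.14, overlapping groups with a difference of -0.29 ± 0.17 (adjusted p = 0.231). Col 48 h replicate 2 was the array inside the control range, and without it the col difference was -0.44 (adjusted p = 0.0489).

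CYP71B5 (AT3G53280) read 6.88, 7.06 and 7.04 in atg5 control and 6.16, 6.31 and 6.38 at 48 h, and fell by 0.71 ± 0.14 (adjusted p = 0.0028). In col the arrays read 6.33, 6.04 and 6.47 in control and 6.62, 6.16 and 6.49 at 48 h, a difference of 0.14 ± 0.14 (adjusted p = 0.504). The submerged atg5 arrays lay within the range of the col arrays, and the atg5 control arrays above it.

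CYP71B22 (AT3G26200) was dim throughout. It read 4.69, 3.50 and 3.90 in atg5 control and lay at the floor on all 3 atg5 arrays at 48 h, so its level there is known only from above. The fitted difference was -1.82 ± 0.51 (adjusted p = 0.0185). The call ended without atg5 control replicate 1 (adjusted p = 0.0691), without atg5 48 h replicate 1 (adjusted p = 0.0505) and without atg5 48 h replicate 3 (adjusted p = 0.0509). In col the signal was 2.22, 2.45 and 3.86 in control and 2.22, 2.21 and 3.45 at 48 h, with replicate 3 alone above 3 in each, and the difference of -0.22 ± 0.51 did not pass (adjusted p = 0.895).

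CYP78A9 (AT3G61880), a member of the CYP78A subfamily that promotes organ growth, known for its effect on fruit and seed size, read 3.68, 3.94 and 3.95 in atg5 control and 4.30, 5.77 and 5.91 at 48 h. It rose by 1.47 ± 0.40 (adjusted p = 0.0158), with replicate 1 at 48 h far less raised than the others. The call ended without atg5 control replicate 1 (adjusted p = 0.0525), without atg5 48 h replicate 2 (adjusted p = 0.0598) or 3 (adjusted p = 0.0595), and with the atg5 arrays alone in the model (adjusted p = 0.0853). In col it read 4.10, 3.70 and 4.02 in control and 4.34, 4.10 and 4.86 at 48 h, a difference of 0.50 ± 0.40 that did not pass (adjusted p = 0.389).

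CYP84A4 (AT5G04330) hydroxylates a lignin-type aldehyde in the synthesis of arabidopyrones and is a relative of the lignin enzyme ferulate 5-hydroxylase. It stayed close to the floor, at 2.86, 3.05 and 2.86 in atg5 control and 3.42, 3.57 and 3.40 at 48 h, and rose by 0.54 ± 0.13 (adjusted p = 0.00752). In col it read 2.56, 2.28 and 2.86 in control and 2.88, 2.86 and 2.86 at 48 h. The col difference of 0.30 ± 0.13 did not pass (adjusted p = 0.0964), but did with quantile normalization (0.47, adjusted p = 0.00593), with median centring (0.49, adjusted p = 0.00687) and without col control replicate 3 (0.44, adjusted p = 0.00655).

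Of the 3 genes almost always at the floor, CYP71B38 read 2.58 and 2.39 on col 48 h replicates 1 and 2 and lay at the floor on the other 10 arrays. Its col difference of 0.19 ± 0.07 did not pass (adjusted p = 0.0748), though it did without col 48 h replicate 3 (0.28, adjusted p = 0.00105). CYP71B21 and CYP71B27 differed by 0.04 and 0.07 in col and did not pass.

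The position of these genes was not used to choose them. In RefSeq's annotation of assembly TAIR10.1, 11 of the 24 lie on chromosome 3 in a run of 24 genes from CYP71B16 to CYP71B37, of which 18 carry CYP symbols. A run here means members with at most 10 other genes between neighbours, counting protein-coding genes and pseudogenes. A run of 3 members among 4 genes, CYP71B27 to CYP71B29, is on chromosome 1, and another of 3 among 4, CYP71B5 to CYP71B31, on chromosome 3. The build behind the probe annotation is not given in the sources used here, so only the order is used.

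Some direct neighbours responded in opposite directions and others in the same direction. Within the long run the order CYP71B34, CYP71B35, CYP71B36, CYP71B37 has no other gene between its members. The first 2 fell in both genotypes, the third rose in both, and the fourth was at the floor on all arrays. CYP71B21, CYP71B22 and CYP71B23 are likewise adjacent: CYP71B21 left the floor on 1 array, CYP71B22 was at the floor on all atg5 48 h arrays, and CYP71B23 read above 11.7 on all submerged arrays. On chromosome 1, CYP71B29 rose in both genotypes directly beside CYP71B28, which fell in atg5 and did not pass in col. In the long run 4 members rose in each genotype, 2 fell in col and 3 in atg5, and 3 were at the floor on all arrays.

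Near-identical copies in such runs can share probe signal, which was not tested with probe sequences. On the submerged arrays, where CYP71B23 was high, its direct neighbour CYP71B22 read from 2.20 to 3.45. CYP71B36 rose between CYP71B35, which fell, and CYP71B37, which was at the floor. CYP71B24, separated from CYP71B23 by 1 gene, rose with it in both genotypes. None of the 13 other genes inside the run had a probe set annotated to it alone. Of the 10 genes on each side of it, 9 were measured, of which 3 lay at the floor. Among the 9, 1 rose and 1 fell in col, with differences from -0.40 to 1.17, and 1 rose and 2 fell in atg5.

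**Figure D2:**
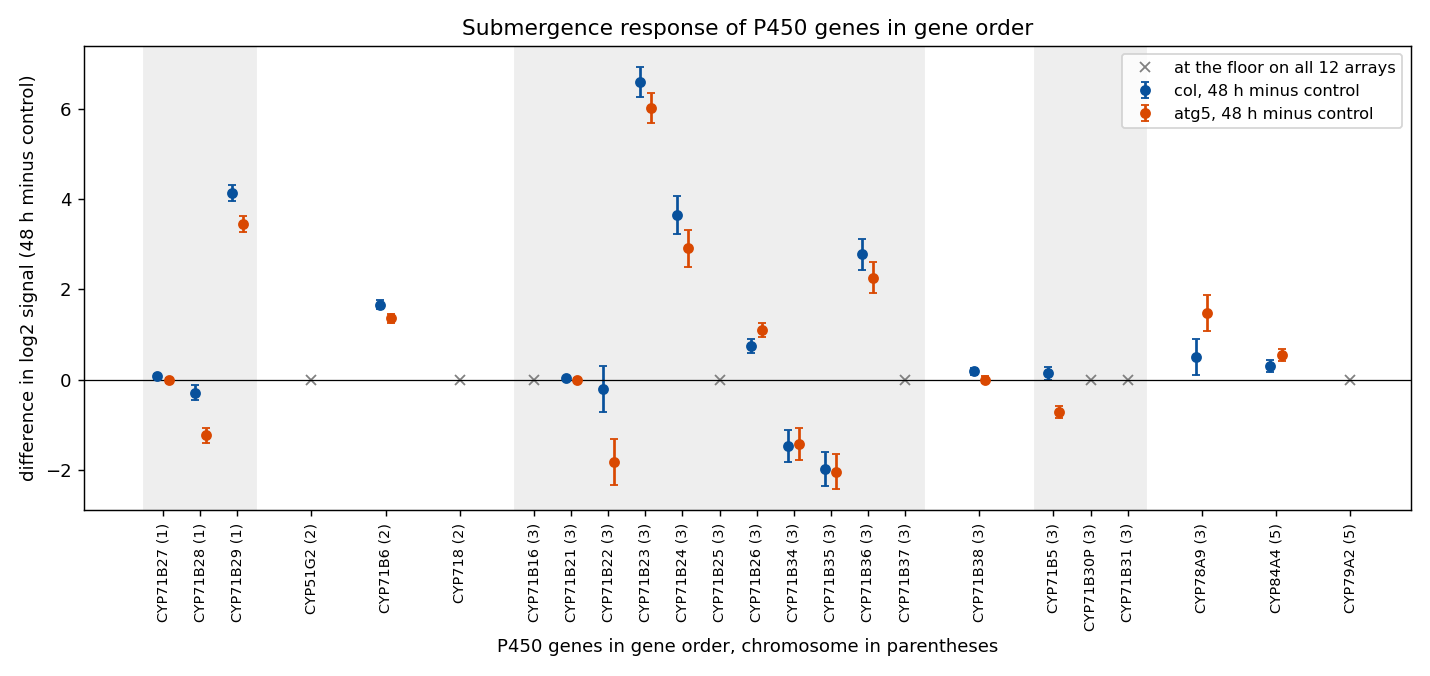
Difference in log2 signal between 48 h and control (vertical axis) in col and atg5 for the 24 P450 genes in gene order (horizontal axis), with standard errors from the model. Grey bands mark the 3 runs of neighbouring members and crosses the 8 genes at the floor on all 12 arrays. In the long run on chromosome 3, CYP71B23, CYP71B24 and CYP71B36 lie above 2 while CYP71B34 and CYP71B35 lie below -1.

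The second question is how atg5 differs from col. Without submergence, 1 of the 24 P450 genes was higher in atg5 and 0 were lower, where 2.34% of all genes were called, 1.37% higher and 0.973% lower. CYP71B5 was the gene that passed, at 6.88, 7.06 and 7.04 in atg5 against 6.33, 6.04 and 6.47 in col, a difference of 0.72 ± 0.14 (adjusted p = 0.0438). All 3 atg5 arrays lay above all 3 col arrays. The call was close to the threshold. It was lost under 11 of 22 alternatives, with adjusted p from 0.0218 to 0.135, and leaving out any array other than col control replicate 3 and col 48 h replicates 1 and 2 ended it.

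At unadjusted p under 0.05, 6 P450 genes, CYP71B5 among them, were higher in atg5 control and 0 lower. The share of all genes at that unadjusted threshold is not given here, so this count cannot be set against a background. Of the 16 off the floor, 13 differed upwards and 1 downwards, beside 47.9% upwards among all genes off the floor. CYP71B36 was higher by 1.02 ± 0.34 (adjusted p = 0.207), with all atg5 arrays above all col arrays. CYP71B23 differed by 0.83 ± 0.33 (adjusted p = 0.303) and CYP71B22 by 1.19 ± 0.51 (adjusted p = 0.35), and both had overlapping groups. CYP71B28 differed by 0.42 ± 0.17 (adjusted p = 0.301). CYP71B24, not among the 6, differed by 0.83 ± 0.42 (limma's unadjusted p = 0.0794, adjusted p = 0.456). CYP84A4 differed by 0.35 ± 0.13 (adjusted p = 0.249), which passed without col control replicate 3 (0.50, adjusted p = 0.0448). Apart from CYP71B5, none of these genes passed with all arrays, and all of them share the same 6 arrays.

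At 48 h, 1 P450 gene was higher in atg5 and 0 were lower, where 3.42% of all genes were called, 1.84% higher and 1.58% lower. CYP84A4 read 3.42, 3.57 and 3.40 in atg5 against 2.88, 2.86 and 2.86 in col, so the groups did not overlap, and it was higher by 0.60 ± 0.13 (adjusted p = 0.0446). This call too was lost under 12 of 22 alternatives, with adjusted p from 0.0205 to 0.118, and it was kept on leaving out an array only for col control replicates 2 and 3. At unadjusted p under 0.05, 2 P450 genes were higher and 3 lower, again with no share of all genes at that threshold given. Of the 16 off the floor, 8 differed upwards and 8 downwards, beside 46.6% upwards among all genes off the floor.

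CYP71B26 was higher in atg5 at 48 h by 0.49 ± 0.16 (adjusted p = 0.151), with no overlap between 10.71, 10.61 and 10.88 in atg5 and 10.25, 10.21 and 10.27 in col. It passed without col control replicate 1 (adjusted p = 0.0444). CYP78A9 differed by 0.89 ± 0.40 (adjusted p = 0.339) and passed without atg5 48 h replicate 1 (1.40, adjusted p = 0.0368). CYP71B28 differed by -0.53 ± 0.17 (adjusted p = 0.145) and passed without col 48 h replicate 1 (-0.72, adjusted p = 0.034). CYP71B23, the gene that responded most, differed by 0.25 ± 0.33 (adjusted p = 0.913).

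**Figure D3:**
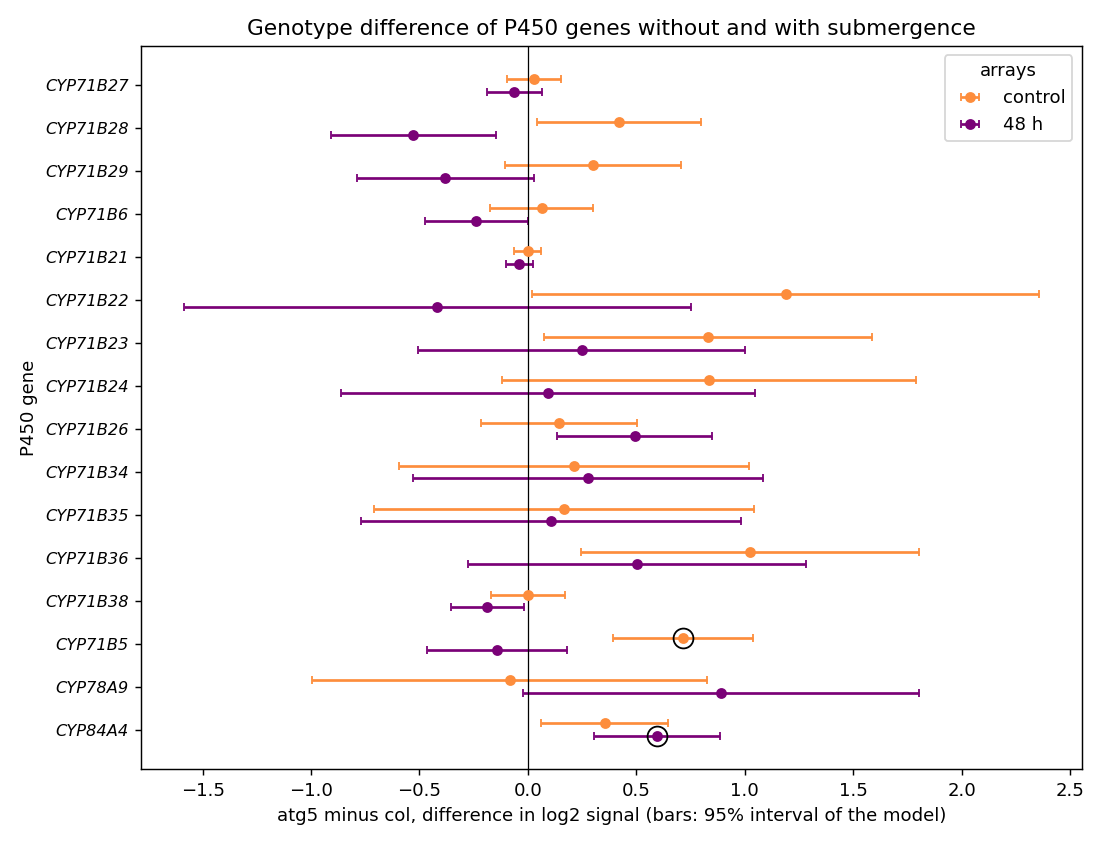
Difference in log2 signal between atg5 and col (horizontal axis) for the 16 P450 genes off the floor (vertical axis), on control arrays and on 48 h arrays, with 95% intervals from the model. Rings mark the calls that passed, CYP71B5 in control and CYP84A4 at 48 h.

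The third question is whether the response to submergence differed between the genotypes. By limma's interaction term, the 48 h minus control difference in atg5 less that in col, 0 of the 24 P450 genes passed. Of all genes 0.599% were called, 0.337% with a positive term and 0.262% with a negative one. At unadjusted p under 0.05, 3 passed, all with a negative term, and 0 with a positive one. The share of all genes at that threshold is not given here. Of the 16 off the floor, 4 had a positive term and 12 a negative one, beside 49.3% positive among all genes off the floor. The term reuses the control arrays, on which CYP71B5 and CYP71B28 differed between genotypes by 0.72 and 0.42. These counts are thus not independent of the comparison without submergence. A negative term can be a larger fall or a smaller rise in atg5. CYP71B28 differed by -1.23 in atg5 and -0.29 in col, and CYP71B5 by -0.71 in atg5 and 0.14 in col. CYP71B5 had a difference between the responses of -0.86 ± 0.20 (95% interval -1.31 to -0.40, adjusted p = 0.113) and CYP71B28 one of -0.95 ± 0.23 (95% interval -1.48 to -0.41, adjusted p = 0.126). Without col 48 h replicate 1, CYP71B28 passed (-1.14, adjusted p = 0.0412). CYP71B29, which rose strongly in both, differed in response by -0.68 ± 0.25 (adjusted p = 0.318).

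The genes called in a single genotype thus do not have a response shown to differ between genotypes. The interval for CYP71B22 ran from -3.26 to 0.05 and that for CYP78A9 from -0.31 to 2.26, which leaves large differences within reach of these arrays. For CYP84A4 the interval was -0.17 to 0.65, and for CYP71B23 -1.65 to 0.48. CYP71B6 had an interval from -0.64 to 0.03.

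The cyclophilins CYP59 and CYP71 are peptidyl-prolyl isomerases of the nucleus. CYP71 acts on chromatin and CYP59 contacts RNA polymerase. CYP71 read 6.23, 6.26 and 6.36 in col control and 5.75, 6.06 and 6.15 at 48 h. It fell by 0.29 ± 0.10 (adjusted p = 0.0445), a call lost under 13 of 22 alternatives with adjusted p from 0.0142 to 0.367, among them the omission of most single arrays. In atg5 it differed by 0.21 ± 0.10 (adjusted p = 0.144), and atg5 minus col at 48 h was 0.45 ± 0.10 (adjusted p = 0.0512). CYP59 differed by 0.25 ± 0.14 in col (adjusted p = 0.229) and -0.32 ± 0.14 in atg5 (adjusted p = 0.126), and at 48 h it differed between genotypes by -0.55 ± 0.14 (adjusted p = 0.0803).

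Few other genes of the P450 pathways carry a named probe set. Of 9 listed electron donors 1 was measured, the diflavin reductase ATR3 (AT3G02280), which rose by 0.80 ± 0.19 in col (adjusted p = 0.00846) and 0.72 ± 0.19 in atg5 (adjusted p = 0.0153). That ATR3 passes electrons to P450 enzymes was not checked, so nothing is read from it about their electron supply. The microsomal P450 reductases ATR1 and ATR2 were not analysed here. Of 20 listed genes of glucosinolate and camalexin synthesis 3 were measured, and 2 fell in each genotype. BCAT4 (AT3G19710), which starts methionine chain elongation, fell by 7.84 ± 0.23 in col and 8.55 ± 0.23 in atg5. UGT74C1 (AT2G31790) fell by 4.50 ± 0.18 and 4.02 ± 0.18, while UGT74B1 (AT1G24100) differed by -0.07 (adjusted p = 0.888) and -0.33 (adjusted p = 0.148).

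Of 20 listed jasmonate genes 6 were measured, 2 of them at the floor, and 1 rose in each genotype. This was JOX2 (AT5G05600), a jasmonate oxidase, which rose by 6.47 ± 0.70 in col and 3.29 ± 0.70 in atg5. Its interaction term of -3.19 ± 0.99 did not pass (adjusted p = 0.224). In the phenylpropanoid and lignin list 3 of 17 were measured and HCT (AT5G48930) rose in col by 0.39 ± 0.10 (adjusted p = 0.0102). In atg5 0 of the 3 passed. In the flavonoid list 4 of 9 were measured. UGT78D1 (AT1G30530) fell by 3.95 ± 0.38 in col and fell by 3.39 ± 0.38 in atg5. UGT78D2 (AT5G17050) fell by 0.80 ± 0.22 in col (adjusted p = 0.0176) and differed by -0.27 ± 0.22 in atg5 (adjusted p = 0.442). Its interaction did not pass (adjusted p = 0.641). UGT75D1 (AT4G15550), the 1 gene measured of 12 in the abscisic acid list, rose by 1.68 ± 0.30 in col and 1.92 ± 0.30 in atg5. That UGT75D1 acts on abscisic acid was not checked, so nothing is read from it about that hormone. LYCB (AT3G10230), the 1 measured of 12 carotenoid genes, fell by 0.53 ± 0.12 in col (adjusted p = 0.005). In atg5 it differed by -0.24 ± 0.12 (adjusted p = 0.163), and its interaction did not pass (adjusted p = 0.602). At 48 h LYCB was higher in atg5 by 0.59 ± 0.12 (adjusted p = 0.0346).

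The labelled tissue was checked with marker genes. Of 16 leaf photosynthesis markers 5 were measured, all bright in the controls, where the mean over the 5 ran from 13.71 to 13.81. It lay between 10.83 and 12.02 in col at 48 h and between 11.82 and 12.04 in atg5 at 48 h, and 5 fell in col and 4 in atg5. The markers fell at 48 h, where the P450 calls ran in both directions, and their part in the P450 responses was not tested. Of 10 listed root genes 5 were measured, and 3 lay at the floor on all arrays. PYK10 (AT3G09260), a root beta-glucosidase, lay near the floor throughout. The fifth, AT5G44020, was bright in the controls, from 11.17 to 11.32 in col and from 11.03 to 11.37 in atg5. Whether AT5G44020 is particular to roots was not checked, so its signal is not read as root RNA. This gene fell by 3.81 ± 0.54 in col and 5.48 ± 0.54 in atg5. Of the guard cell markers 2 of 6 were measured, and AT1G22690 fell by 2.0 ± 0.63 in col and fell by 2.67 ± 0.63 in atg5, while FAMA (AT3G24140) did not pass. Of the dividing cell markers 2 of 8 were measured, and AUR2 (AT2G25880) fell by 0.83 ± 0.11 in col and fell by 0.92 ± 0.11 in atg5, while AUR1 (AT4G32830) did not pass. SWEET11 (AT3G48740), the 1 phloem gene measured of 6, rose by 0.90 ± 0.23 in col and differed by -0.26 ± 0.23 in atg5 (adjusted p = 0.484). LAS (AT1G55580), the 1 gene measured of the epidermis list, is not an epidermis marker and was listed in error, so the epidermis was not checked. Arrays of the same group correlated at Pearson's r of 0.985 to 0.996 across genes, which are not independent replicates.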

How the data were processed

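Biotin-labelled total RNA of leaves was measured on 12 one-colour arrays. The authors deposited a log2 signal for each probe set. Per the submitters' processing notes MAS5 and GCRMA were used, with no role, order or version given. That the scale is log2 was inferred from the values. Of 22810 probe sets, 64 controls were left out, and 13513 of the remaining 22746 carry 1 gene in the platform annotation. Another 503 carry several genes and 8730 carry no gene name. A gene is called measured where a probe set names it alone, so a gene not measured may still have an unnamed probe set. The brightest probe set stood for each of 13356 genes, and 13286 matched a RefSeq locus. Each P450 gene had a single such probe set. CYP probe sets of several genes, 2 in number, were not used.

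All 12 arrays entered a linear model of the group means in limma 3.58.1 under R 4.3.3 (8 residual degrees of freedom, prior 0.488), tested on simulated data first. Tests are two-sided, adjusted over all genes in each of 5 comparisons. No arrays were identical. Scan dates and batches are not given in the sources used here. The labels call the replicates biological without naming separate harvests.

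The members, lists and tests were chosen with earlier results of these data known. Named by rule were P450 genes with a known role, the largest responses that passed, genes that passed between genotypes, the largest members of the CYP71 family, and up to 4 listed pathway genes that passed. Other P450 genes and some list members are given as well. CYP718 has no subfamily letter and was counted as a P450 after its RefSeq name was seen, which changed no call, since it lies at the floor. In the sterol list the 1 gene measured, AT1G22430, encodes an alcohol dehydrogenase-like protein and was listed in error, so it is not described. Of the brassinosteroid, gibberellin and cuticle lists 0 genes had a probe set annotated to them alone.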

Additional observations from a re-analysis of the deposited data

How the results depend on the processing

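The alternatives were quantile normalization, median centring, leaving out dim genes, raising low values to the 25th percentile, the mean over probe sets, all probe sets, the replicate block, a trended and a robust variance prior, the groups of a comparison alone, and each array left out in turn. Calls of CYP71B23, CYP71B24, CYP71B26, CYP71B29, CYP71B35, CYP71B36 and CYP71B6 passed in both genotypes under all of them. Median centring raised the count of P450 genes that rose to 19 in col and 18 in atg5. By its construction it lifts every gene on the submerged arrays, those at the floor included, and it turned CYP71B27 in atg5 to 0.24 (adjusted p = 0.035). With the groups of a comparison alone, 1 gene fell in col, and 0 were higher in atg5 in control or at 48 h. The fit with the replicate number as a replicate block also gave 0 higher in control and 0 at 48 h. Same-numbered arrays deviated together in 1 of 18 pairs (r over 0.1, range -0.48 to 0.10), and a number was the best match in 7 of 18 comparisons, so the numbers were not taken as pairs. Leaving out single arrays gave 6 to 7 rises and 2 to 3 falls in col. In atg5 it gave 7 to 8 rises and 4 to 5 falls. Between genotypes, 0 to 2 genes were then higher and 0 lower in atg5 control. At 48 h 0 to 1 were higher and 0 to 1 lower in atg5. The interaction passed for 0 genes with a positive term and 0 to 1 with a negative one. The median difference over the P450 genes moved to 0.50, 1.10 and -0.52 in col, atg5 and the interaction when dim genes were left out, since the members at the floor go. Signal at the floor limits what the 8 genes lying there on all arrays can show.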
